A study of Oryza sativa with 4 samples.

Results

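OsLEC1 peaks in the outermost 3 Mb of the short arms of rice (Oryza sativa) chromosomes 11 and 12 are described here. A peak was taken when its summit, the base with the highest coverage, lay below position 3000000 on either chromosome of the IRGSP-1.0 assembly. Of the 27452 peaks listed for the OsLEC1 ChIP library, 325 met this rule, or 1.18%, with 174 on chromosome 11 and 151 on chromosome 12. The rule used position alone, so peak number, width, enrichment and spacing were free to differ between the copies.

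The series holds chromatin immunoprecipitation followed by sequencing (ChIP-seq) of callus from Nipponbare (NIP), the wild type, and from 35S:3*FLAG-OsLEC1, a transgenic line in the Nipponbare background. Callus, a mass of dividing, largely unspecialised cells, was grown from seeds for 30 days on a medium with 10 μM 2,4-D, a synthetic auxin. Both genotypes were precipitated with an anti-DDDDK antibody, which recognises the FLAG tag, and each had 1 ChIP and 1 input library. The constitutive 35S promoter drives the tagged protein in the transgenic plants, of which 1 line was used for ChIP-seq, so its sites are those of an overexpressed protein in callus. With 1 library per group, replicate error is unknown for every value. All intervals are 95% intervals that cover counting error, or for medians the spread among peaks, and none covers variation between callus samples. The labelled tissue could not be checked, since peak lists hold no expression of marker genes.

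LEC1 belongs to the NF-YB family, whose members pair with an NF-YC subunit through histone folds and then join an NF-YA subunit or other transcription factors on DNA. It is best known as a regulator of embryo development and seed maturation. The short-arm ends of rice chromosomes 11 and 12 are known as a segmental duplication whose copies have stayed unusually alike, in part through gene conversion. When only uniquely mapped reads are kept, as in this study, a read that matches both copies equally well is discarded from the ChIP library and from the input alike. The likeness of the copies was not measured here, because no genome sequence of this assembly was used, and for the same reason peaks are given by position and without gene names or bases.

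The NIP library had 0 peaks in both short-arm ends, out of 2 in its whole list. From the peak lists, mean coverage was 3.49 fragments per base in OsLEC1-ChIP and at most 0.842 in NIP-ChIP, or at most 24.1% of the former, so the absence of NIP peaks was seen at a lower depth.

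The copies did not differ in peak number beyond counting error. The density was 58.0 peaks per Mb on chromosome 11 (49.7 to 67.3), and on chromosome 12 it was 50.3 (42.6 to 59.0). The ratio of chromosome 12 to chromosome 11 was 0.868 (0.693 to 1.09), an interval that includes equality but also a sizeable deficit on chromosome 12. The peaks covered 74166 bp of the chromosome 11 end, or 2.47% of it, and 67682 bp of the chromosome 12 end, or 2.26%.

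Each end as a whole was denser than the remainder of its own chromosome. Beyond 3 Mb, chromosome 11 had 40.5 peaks per Mb and chromosome 12 had 36.5, up to the last peak of each. The ratio of the end to the remainder was 1.43 (1.21 to 1.68) on chromosome 11 and 1.38 (1.15 to 1.64) on chromosome 12. The outer 2 Mb alone had 44.0 peaks per Mb (35.3 to 54.2) and 41.0 (32.6 to 50.9), intervals that include the values of the remainders, and the third Mb alone was denser. Against the same 3 Mb of the other 10 chromosomes, which together had 66.0 peaks per Mb and ranged from 20.7 to 137, the ratio was 0.879 (0.748 to 1.03) for chromosome 11 and 0.763 (0.642 to 0.900) for chromosome 12. Among the 12 chromosomes, the 2 ends took places 8 and 9 by density. These intervals treat peaks as independent, although neighbouring peaks may share a source. In windows of 100 kb, the variance of the counts was 2.24 times the mean on chromosome 11 and 1.45 times on chromosome 12.

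**Figure D1:**
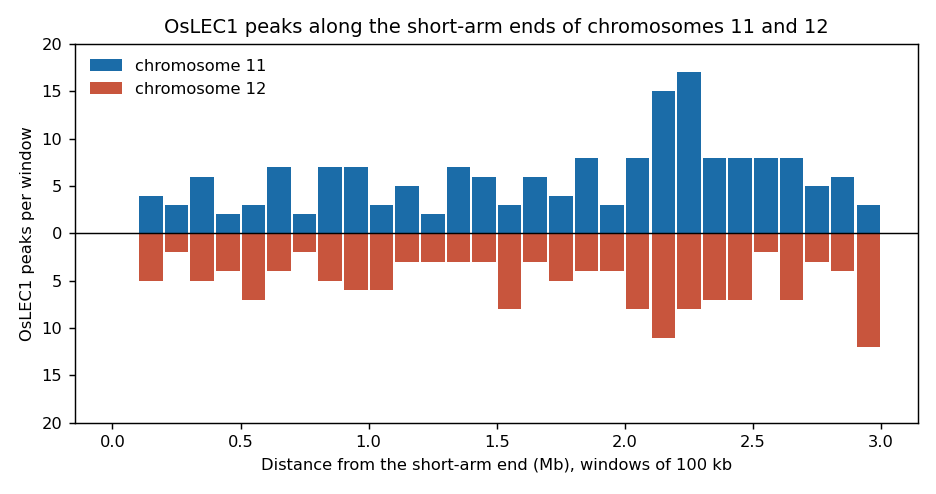
Number of OsLEC1 peaks in windows of 100 kb along the short-arm ends of chromosome 11 (bars upwards) and chromosome 12 (bars downwards), against the distance from the short-arm end. Both copies have 0 peaks in the first window and their highest counts lie beyond 2 Mb, 17 on chromosome 11 and 12 on chromosome 12.

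Peaks were unevenly spread along both copies, with a sparse outer and a dense inner part. On chromosome 11, the successive windows of 500 kb held 15, 26, 23, 24, 56 and 30 peaks. On chromosome 12, they held 16, 24, 18, 24, 41 and 28. The windows agreed closely up to 2 Mb, with 88 peaks on chromosome 11 and 82 on chromosome 12. The 4 windows beyond 2 Mb of both copies exceeded every window before it, narrowly for the lowest, at 28 against 26 peaks. In each copy, the window from 2 to 2.5 Mb was the fullest. From 2.5 to 3 Mb, density intervals were 40.5 to 85.7 peaks per Mb on chromosome 11 and 37.2 to 80.9 on chromosome 12. They include the 44.0 and 41.0 of the outer 2 Mb. In windows of 250 kb, the inner part was not dense throughout. Chromosome 11 had 11 peaks from 2.75 to 3 Mb and up to 15 in outer windows. Chromosome 12 had 10 from 2.5 to 2.75 Mb and up to 13 in outer windows.

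From 2 to 3 Mb, the density was 86 peaks per Mb on chromosome 11 (68.8 to 106), against 44.0 before it (35.3 to 54.2), a ratio of 1.95 (1.43 to 2.66). On chromosome 12, it was 69 peaks per Mb (53.7 to 87.3), against 41.0 before it (32.6 to 50.9), a ratio of 1.68 (1.20 to 2.35). The limit of 2 Mb was chosen with the counts in view. On the other 10 chromosomes, the same ratio lay between 0.324 and 1.37 with a median of 0.929. Chromosomes 11 and 12 thus had the highest and the next highest of 12. Within the third Mb, the window from 2 to 2.5 Mb held 1.87 times (1.18 to 3.01) the peaks of the next on chromosome 11. On chromosome 12, it held 1.46 times (0.884 to 2.46), an interval that includes equality.

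**Figure D2:**
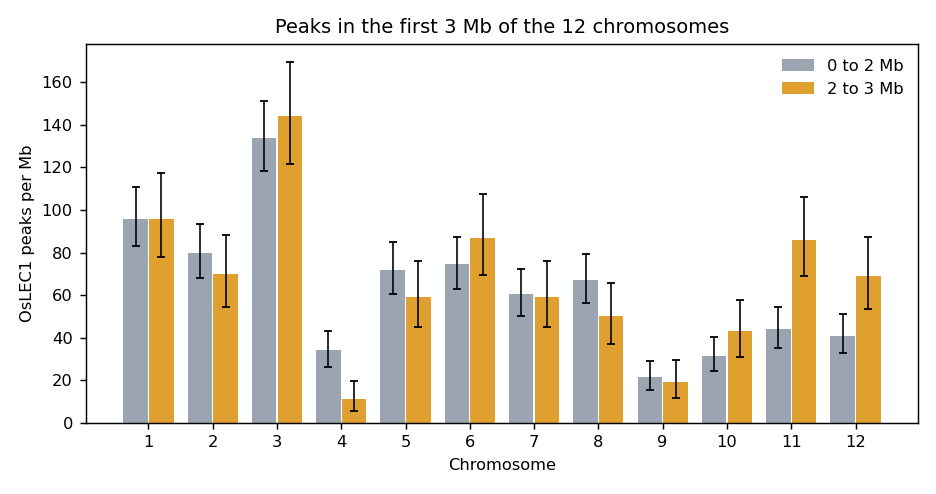
OsLEC1 peaks per Mb in the first 2 Mb (grey) and the third Mb (orange) of each of the 12 chromosomes. Error bars are exact Poisson 95% intervals, and the third Mb exceeds the first 2 Mb most on chromosomes 11 (86 against 44.0) and 12 (69 against 41.0).

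The copies stood farthest apart in a pair of windows of the dense part, picked out after the counts were seen. The window from 2.2 to 2.3 Mb held 17 peaks on chromosome 11 and 8 on chromosome 12, the largest excess on chromosome 11 in any window of 100 kb. The window from 2.9 to 3.0 Mb held 3 on chromosome 11 and 12 on chromosome 12, the largest excess in the other direction. Expressed per Mb, the intervals overlapped in both windows, 99.0 to 272 against 34.5 to 158 in the former and 6.19 to 87.7 against 62.0 to 210 in the latter. Of 30 windows of 100 kb, 18 had more peaks on chromosome 11, 9 had more on chromosome 12 and 3 were equal, the empty first window among the latter.

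The first summit lay at 135127 on chromosome 11 and at 125903 on chromosome 12. Each copy thus began with a stretch of more than 100 kb without a listed peak. On the other 10 chromosomes, the first summit was found between 8.42 and 163 kb from base 1, with a median of 52.8 kb. Only chromosome 9 began later than both copies.

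Counts in windows at equal distance from the ends rose and fell together to a limited degree. Spearman's coefficient between the copies was 0.382 over 30 windows of 100 kb, the second highest of the 66 pairs of chromosomes, where the other 65 pairs had a median of 0.0454 and a highest value of 0.391. It was 0.144 over 60 windows of 50 kb, which was 14th of 66. With 12 windows of 250 kb it was 0.391, the 9th highest. With 6 windows of 500 kb, a width added after the data were seen, the coefficient was 0.986, the highest of the 66 pairs. With so few windows, the other 65 pairs ran from -0.868 to 0.956. These values describe places within 1 library, and neighbouring windows share their surroundings. In windows of 100 kb, the coefficient was 0.226 over the 20 windows up to 2 Mb.

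Summits did not line up under 1 constant shift between the copies. Among 7276 pairs of a chromosome 11 summit with a chromosome 12 summit less than 400 kb away, at most 13 shared the same shift within 500 bp, and a median of 5 did so. This ratio of 2.60 was 37th of 66 chromosome pairs, whose other values ran from 1.81 to 3.67. Its rank depends in part on peak density, since chromosomes with more summit pairs tended to have lower ratios. Chromosomes 1 and 3, with 31613 summit pairs, had 1.81, and chromosomes 4 and 5, with 4279, had 3.67. At numbers near 7276, chromosomes 5 and 12 (7535) had 2.33 and chromosomes 1 and 10 (7440) had 3. A constant shift would be lost wherever 1 copy has gained or lost sequence. The value of 2.60 thus says nothing of shorter stretches in which the order of sites may be kept.

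Peak height had overlapping intervals in the copies. The fold relates the coverage of the ChIP library at the summit to the local background, with 1 added to each, as given by the authors' peak caller. Its median was 4.93 (4.65 to 5.47) on chromosome 11 and 5.06 (4.75 to 5.60) on chromosome 12. The range was 2.37 to 19.5 on chromosome 11 and 2.18 to 16.9 on chromosome 12. The median fold of the other 10 chromosome starts was 5.12 (4.98 to 5.24), which both intervals of the copies overlap.

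The pileup, which counts ChIP fragments at the summit, had a median of 31.5 (30 to 34) on chromosome 11 and 32 (29 to 36) on chromosome 12. The lowest pileups were 16 and 13 fragments and the highest 240 and 193. The peaks of the other 10 chromosome starts had a pooled median of 37 (36 to 38), whose lower end the interval of chromosome 12 met. The medians of single starts ran from 31.5 to 41, so both copies were within their range. The remainders of chromosomes 11 and 12 had medians of 35 (34 to 36) and 36 (34 to 37).

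Widths overlapped as well. The median width was 349.5 bp (332 to 383) on chromosome 11 and 379 bp (349 to 418) on chromosome 12. The interval of the difference was not computed, and the overlap does not show equal widths. Over both ends together, the median was 367 bp (346 to 387). It was 383 bp (374 to 393) in the other 10 chromosome starts and 408 bp (405 to 410) over the 12 chromosomes. Peaks of at least 1000 bp numbered 3 on chromosome 11 and 4 on chromosome 12, or 7 of 325. There were 73 of 1980 in the other 10 chromosome starts and 1429 of 27432 over the 12 chromosomes.

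**Figure D3:**
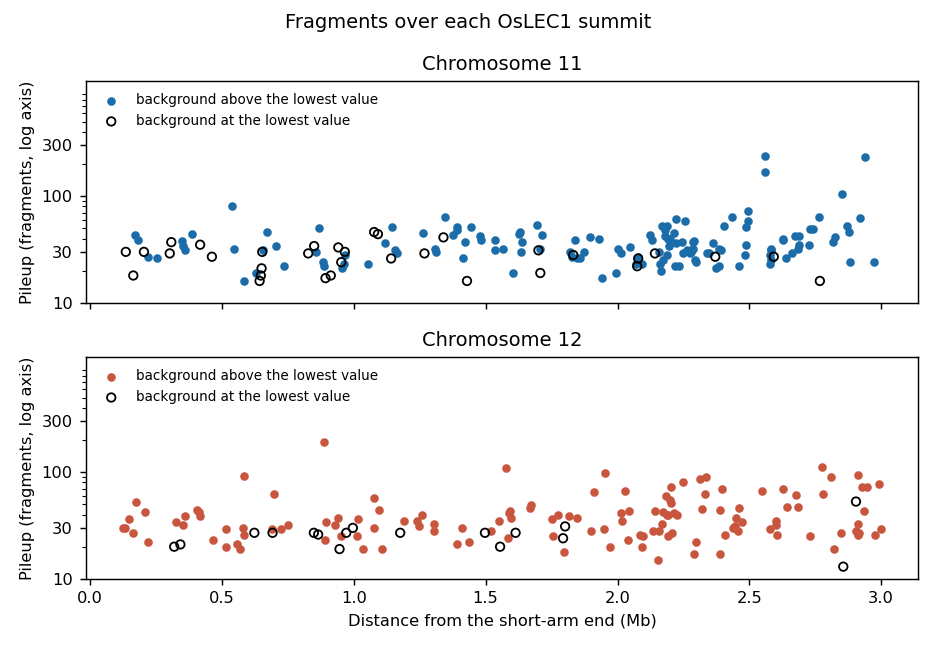
Fragments over each OsLEC1 summit (pileup, log axis) against the distance from the short-arm end, with 1 point per peak, for chromosome 11 (upper panel) and chromosome 12 (lower panel). Open circles mark the 33 and 17 peaks whose background was at the lowest value of the library, which crowd towards the outer 1 Mb of chromosome 11, and the highest points are 240 fragments on chromosome 11 and 193 on chromosome 12.

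The strength of a peak can be read from its −log10 q-value, a measure of how far the pileup exceeded the background after correction for many tests. Strong peaks took a smaller share in the copies together than in the other chromosome starts pooled. On chromosome 11, 37 peaks reached a −log10 q-value of 20, or 21.3% (15.4 to 28.1%), and on chromosome 12, 38 did, or 25.2% (18.5 to 32.9%). Together, the share was 23.1% (18.6 to 28.0%), against 33.0% (31.0 to 35.2%) in the other 10 chromosome starts. The interval of chromosome 12 alone overlapped that of the other starts. Median −log10 q-values of single starts ran from 12.2 on chromosome 9 to 16.3 on chromosome 3. Those of the copies, 13.3 on chromosome 11 and 13.1 on chromosome 12, were within this range. The share reaching 20 was as follows elsewhere. It was 32.8% (29.9 to 35.7%) in the remainder of chromosome 11 and 31.0% (28.0 to 34.2%) in that of chromosome 12, where the lower bound meets the upper bound of the copies.

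On chromosome 12, 36.2% (25.0 to 48.7%) of the peaks from 2 to 3 Mb reached 20, against 15.9% (8.72 to 25.6%) of those before it, with intervals that just overlap. On chromosome 11, the shares were 24.4% (15.8 to 34.9%) and 18.2% (10.8 to 27.8%), which overlap widely. Peaks with a −log10 q-value from 10 to 20 made up the largest class in each copy, with 73 peaks on chromosome 11 and 58 on chromosome 12. The weakest class, below 5, held 8 and 11 peaks. The median width rose from 311 bp in the class from 5 to 10 to 807 bp in the class of at least 50 on chromosome 11, and from 311 to 677.5 bp on chromosome 12.

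The highest −log10 q-value on chromosome 11, 209, belonged to the peak at chr11:2938460-2939266, with 235 fragments (206 to 267) over a background of 11.4 and a fold of 19.0. It stood 40th among the 27432 peaks on the chromosomes. The peak at chr11:2560201-2560889 had 240 fragments (211 to 272) over a background of 14.3, with a −log10 q-value of 194 and a fold of 15.7. That background was the highest of the chromosome 11 end, shared with a peak of 42 fragments at 2178259, and the peak had the most fragments of the copy without the highest fold.

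Next to it, the peak at chr11:2555553-2558026 spanned 2474 bp, the widest of both copies, with a fold of 19.5 from 167 fragments (143 to 194) over 7.63. The summits of these neighbours were 2856 bp apart, and no other pair of the strongest 5 of a copy stood so close. The peak at chr11:2850419-2851531 followed with 104 fragments (85.0 to 126) over 6.91, with a −log10 q-value of 79.4 and a fold of 13.3. The fifth, at chr11:538016-538622, was the only one of these 5 before 2 Mb. It had 81 fragments (64.3 to 101) over 7.63 and a −log10 q-value of 50.6.

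On chromosome 12, the strongest peak lay in the sparse outer part, at chr12:887412-888285. It had 193 fragments (167 to 222) over a background of 10.5, with a −log10 q-value of 163 and a fold of 16.9. The peak at chr12:1575780-1576388 had 110 fragments (90.4 to 133) over 5.99, with a −log10 q-value of 92.8 and a fold of 15.9. The highest fold of the copy, 16.9 to the same rounding, was that of chr12:2911419-2911908, with 94 fragments (76.0 to 115) over 4.61.

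The fourth, at chr12:2808614-2809296, had 90 fragments (72.4 to 111) over 4.77 and a fold of 15.8. The fifth, at chr12:1953215-1953878, had 99 fragments (80.5 to 121) over 6.68 and a fold of 13.0. On chromosome 12, 2 of the 5 strongest peaks thus lay from 2 to 3 Mb, against 4 of 5 on chromosome 11. None of the 5 strongest peaks of one copy lay within 10 kb of the position of any of those of the other. Positions were compared without aligning the copies, so this cannot show whether strong sites are shared. In all, 4 peaks of chromosome 11 and 5 of chromosome 12 were among the 1000 with the highest −log10 q-value on the chromosomes. These were 2.299% and 3.31% of the peaks of the copies, against 3.65% of all peaks.

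At the other extreme, the 5 weakest peaks had −log10 q-values from 3.98 to 4.57 on chromosome 11 and from 2.25 to 3.41 on chromosome 12.

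**Figure D4:**
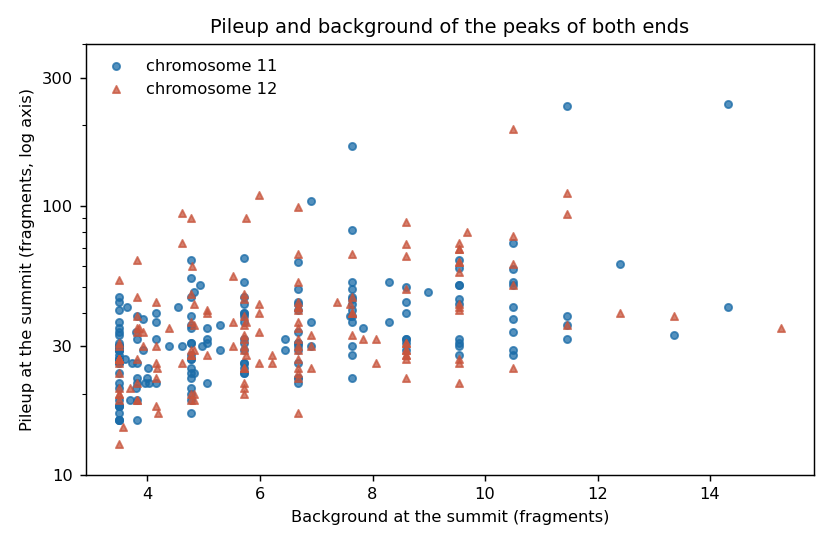
Fragments over the summit (pileup, log axis) against the background at the summit, with 1 point per peak, for chromosome 11 (circles) and chromosome 12 (triangles). Points stand in columns because the background often moves in steps of 0.954, and the peaks at 3.49 form the leftmost column, with no pileup above 53 fragments.

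The background is the local expectation from the input, scaled to the ChIP library. It is never set below the genome-wide mean of 3.49 fragments, and a peak at this value therefore had no local average of the input above that mean. The median background was 5.51 (4.77 to 5.72) on chromosome 11 and 5.76 (5.72 to 6.68) on chromosome 12, against a pooled 6.68 (6.43 to 6.68) in the other 10 chromosome starts. Single starts had medians from 5.72 to 7.63, a range that includes chromosome 12, while chromosome 11 was below it with an interval that reaches 5.72. At 58.6% of the peaks of chromosome 11 and 57.6% of those of chromosome 12, it equalled 0.954 times a count of input fragments, 4 to 15 in the former and 4 to 16 in the latter, within 0.003 fragments.

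Peaks at the lowest background were frequent in both copies. On chromosome 11, 33 of 174 peaks, or 19.0% (13.4 to 25.6%), were at 3.49, and on chromosome 12, 17 of 151, or 11.3% (6.70 to 17.4%). The other 10 chromosome starts together had 4.34% (3.49 to 5.34%), from 1.70 to 12.7% on single chromosomes, and chromosome 4 alone fell between the copies. All peaks on the 12 chromosomes gave 4.49%. The remainder of chromosome 11 also had a raised share, 9.88% (8.14 to 11.8%), as did that of chromosome 12 with 7.48% (5.84 to 9.40%), where the remainders of the other chromosomes had 2.91 to 5.83%. The interval of the chromosome 11 end lay above that of its remainder, while the intervals of chromosome 12 overlapped.

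The share fell from the tip inwards in both copies. On chromosome 11, it was 43.9% (28.5 to 60.3%) in the first Mb, 19.1% (9.15 to 33.3%) in the second and 6.98% (2.60 to 14.6%) in the third. On chromosome 12, it was 22.5% (10.8 to 38.5%), 14.3% (5.43 to 28.5%) and 2.90% (0.353 to 10.1%). Over the first 2 Mb together, 30.7% (21.3 to 41.4%) of the peaks of chromosome 11 and 18.3% (10.6 to 28.4%) of those of chromosome 12 were at the lowest background. Both intervals lay above those of the third Mb of the same copy, and those of the copies overlapped each other.

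Among the 354 bins of 1 Mb in the genome with at least 20 peaks, the first Mb of chromosome 11 had the highest share, and the next highest was 27.3% on chromosome 1. The first Mb of chromosome 12 was 7th, and the second Mb of each copy took places 12 and 30. Shares like these were also found far from the tips of chromosome 11. They were 22.2% from 8 to 9 Mb, 22.2% from 26 to 27 Mb and 19.6% from 17 to 18 Mb. The median over the bins was 4.72%. The first Mb of chromosome 11 also had the lowest median background of all these bins, 3.82 (3.49 to 4.77), and the third Mb of both copies was back at 6.68. From 3 to 4 Mb, the share was 2.38% on chromosome 11 and 7.25% on chromosome 12, and on chromosome 12 it was 16.3% again from 4 to 5 Mb.

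**Figure D5:**
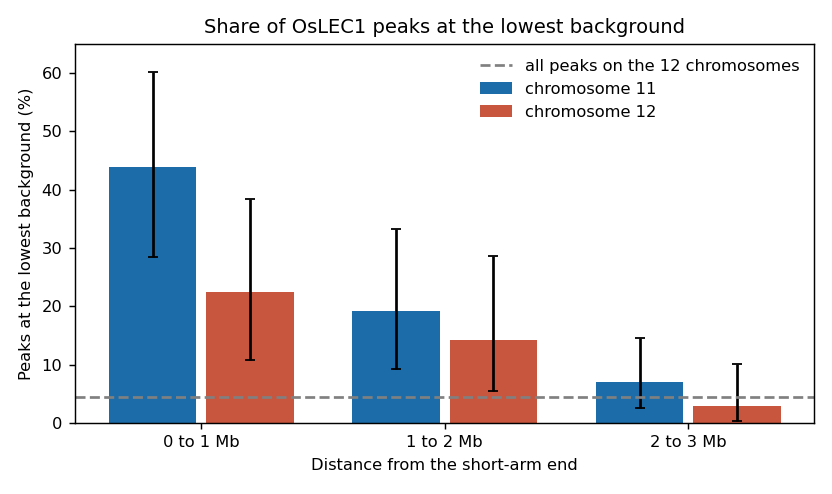
Share of OsLEC1 peaks whose background was at the lowest value of the library, in successive bins of 1 Mb from the tip of chromosomes 11 and 12, with exact 95% binomial intervals. The dashed line is the share over all peaks on the 12 chromosomes (4.49%), and the bars fall from 43.9 to 6.98% on chromosome 11 and from 22.5 to 2.90% on chromosome 12.

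A peak at a low background can be listed with fewer fragments, so a low pileup is in part set by the peak calling. Peaks at the lowest background had a median pileup of 28 (24 to 30) on chromosome 11, against 33 (31 to 37) for the rest. On chromosome 12, it was 27 (21 to 27) against 34.5 (31 to 37). Their median fold was higher by comparison, 6.46 against 4.805 on chromosome 11 and 6.24 against 5.02 on chromosome 12, as a low background raises the fold by its definition. None of them reached a −log10 q-value of 50, with upper bounds of 10.6% on chromosome 11 and 19.5% on chromosome 12. Of the rest, 3.55% (1.16 to 8.08%) reached it on chromosome 11 and 7.46% (3.64 to 13.3%) on chromosome 12, so the intervals overlap. The number of reads lost as matching both copies is not recorded in the peak lists, and its part in the low background, in the sparse outer part and in the empty tips was not tested.

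Across the peaks of a copy, pileup rose with background (Spearman coefficient 0.514 over 174 peaks on chromosome 11 and 0.409 over 151 on chromosome 12). The least pileup that can be listed rises with the background, so this relation is in part set by the peak calling. Background also rose with the distance from the tip (coefficient 0.369 and 0.261). The fold did not follow this distance closely (coefficient -0.0671 and 0.0612). These relations are among peaks of 1 library, and the fold is computed from the pileup and the background.

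Distances between neighbouring summits overlapped between the copies. The median distance was 8.84 kb (6.88 to 11.2) on chromosome 11 and 11.5 kb (8.02 to 14.1) on chromosome 12. It was 13.6 kb (7.63 to 22.7) in the outer 2 Mb and 6.95 kb (5.27 to 9.06) beyond on chromosome 11, and 15.0 kb (10.6 to 19.1) and 8.00 kb (6.10 to 12) on chromosome 12. The shortest distances were 608 and 654 bp.

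Of the 173 distances on chromosome 11, 20 were under 2 kb, or 11.6% (7.21 to 17.3%), and of the 150 on chromosome 12, 13 were, or 8.67% (4.70 to 14.4%). The remainders of the chromosomes had 12% and 9.72%. Of these close distances, 15 on chromosome 11 and 8 on chromosome 12 lay between summits beyond 2 Mb, where peaks were also denser. Distances of at least 50 kb numbered 10 and 13.

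The longest distances were found mostly in the outer part. On chromosome 11, it was 106 kb, between summits at 1714892 and 1821281, and on chromosome 12 it was 98.6 kb, between summits at 220052 and 318644. All of the 5 longest on chromosome 11 and 4 of the 5 longest on chromosome 12 began before 2 Mb. The stretch without summits from 1714892 on chromosome 11 overlapped a shorter one on chromosome 12, of 79.1 kb from 1671393 to 1750510, at equal distance from the ends, an overlap picked out after the values were seen.

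Runs of at least 3 summits, each under 2 kb from the next, were found 3 times on chromosome 11 and 2 times on chromosome 12, all beyond 2 Mb. The longest had 4 summits over 3541 bp on chromosome 11, from 2580136 to 2583677. Its peaks were weak, with pileups of 28, 32, 25 and 31 fragments and folds from 2.52 to 5.27. Both other runs of chromosome 11, described after their values were seen, began at 2276274 and 2285802, so that 6 summits lay within the window of 2.2 to 2.3 Mb that held the most peaks of the copy.

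On chromosome 12, 1 run began at 2600877, with pileups of 35, 32 and 26 fragments. The other began at 2911677 with the peak of 94 fragments described above, followed by peaks of 26 and 33 fragments. The strong summit was thus the first of its run, and both weaker ones lay on its inner side. The starts of the runs at 2580136 on chromosome 11 and 2600877 on chromosome 12 were 20.7 kb apart in distance from the ends. This was the closest pairing of runs between the copies, picked out after the values were seen. The other runs lay farther from any run of the other copy.

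The limit of 3000000 cut through a stretch with few peaks on chromosome 11 and through a dense one on chromosome 12. The last summit inside lay at 2971094 on chromosome 11, with 24 fragments over 4.84, and the first outside at 3031917, with 32 over 4.31. On chromosome 12, the last inside lay at 2997729, with 29 fragments over 8.59, and the first outside at 3003214, with 53 over 4.15.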

How the data were processed

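Reads were aligned by the authors with Bowtie2 (2.3.4.1) to IRGSP-1.0, only uniquely mapped reads were retained, and peaks were called with MACS2 (2.1.2) against the input of each genotype at a q-value of 0.01, with versions and build from the submitters' processing notes. A reproducibility filter for replicates is also named in the methods of the study, whereas each group has 1 library in the labels. The deposited lists give for each peak its position, a score, a fold (a ratio), p- and q-values as −log10 and the offset of the summit from the start. In 100% of OsLEC1 peaks, the deposited score was the whole part of 10 times the −log10 q-value, and it was not used further.

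Whole-number pileups and backgrounds were solved from the fold and the −log10 p-value, a Poisson tail, within 0.001 of the latter, for all 325 peaks described and 100% of the list. The procedure was tested on simulated data. A background within 0.001 fragments of the lowest, 3.49, counted as at the lowest value. Starts were made 1-based. Exact Poisson intervals were used for counts, exact binomial (Clopper-Pearson) intervals for shares and ratios of counts, and order statistics for medians, in Python 3.11.15 with scipy 1.17.1. They cover counting error only, since copies made during library amplification are not independent molecules. No test was run.

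The 5 peaks of highest −log10 q-value in each copy, the longest distance and the runs under 2 kb apart with the most summits were named by rule, and other places named were chosen after their values were seen. Members and rules were chosen with earlier results of these data known. Alternatives were other limits of the −log10 q-value, of the segment and of window width. Gene assignment and alignment of the copies were not run, since the gene table at hand is of another assembly, ASM3414082v1.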

Additional observations from a re-analysis of the deposited data

How the results depend on the processing

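With 1 library per group, no replicate could be left out. No paired analysis was possible because the groups hold single libraries without a test between them. Planned comparisons of colinear gene pairs and of aligned peaks were not run, since they need a genome and annotation of IRGSP-1.0. The ratio of peaks of chromosome 12 to chromosome 11 was 0.843 with −log10 q-values from 5 upwards, 0.873 from 10 upwards and 0.932 up to 2 Mb. Its direction turned among the strongest peaks, with 1.03 from 20 upwards (38 to 37 peaks, 0.636 to 1.66) and 2.00 from 50 upwards (10 to 5 peaks, 0.623 to 7.46), and both intervals include equality.

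With only peaks of a −log10 q-value of at least 10, chromosome 11 had 110 peaks and chromosome 12 had 96, fewer by construction. The median fold was then 6.04 and 6.24, the median width 389.5 and 441 bp, and the median pileup 38.5 and 40.5 fragments. The share at the lowest background was 20.9% on chromosome 11 and 12.5% on chromosome 12 at this limit, close to the 19.0% and 11.3% of all peaks.

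Up to 2 Mb, there were 88 and 82 peaks, with a median background of 4.77 and 5.53 fragments. The share of peaks at the lowest background was 30.7% and 18.3%, and the share of neighbouring summits under 2 kb on chromosome 11 was 5.75%.

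The correlation of window counts between the copies was the result that depended most on the setting. The Spearman coefficient was 0.382 in windows of 100 kb, 0.292 with −log10 q-values from 5 upwards, 0.194 from 10 upwards and 0.226 up to 2 Mb. It was 0.144 in windows of 50 kb, 0.391 in windows of 250 kb, 0.986 in 6 windows of 500 kb and 0.344 over 28 windows counted from the first summit of each copy. The cause was not tested. The windows of 500 kb, those from the first summit, the split at 2 Mb and the share at the lowest background were added after the data were seen.

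At a mean coverage of 3.49 fragments per base, the smallest pileup listed in these ends was 13 fragments, and the least that can be listed depends on the local background. For NIP-ChIP, only an upper limit of the coverage is known.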
